A study of Mus musculus with 6 samples.

Results

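The receptor for interleukin-2 (IL-2), its kinases, the transcription factor STAT5 and the SOCS-type inhibitors that STAT5 induces were followed in induced regulatory T (iTreg) cells with and without the microRNA miR-31. The 10 genes were Il2ra, Il2rb, Il2rg, Jak1, Jak3, Stat5a, Stat5b, Cish, Socs1 and Socs2, taken by symbol from the annotation of the array, on which they have 20 of 41174 different probes. The cKO group held 3 miR-31 fl/fl CD4Cre mice, in which Cre driven by CD4 deletes the floxed miR-31 alleles in T cells, and the control group held 3 mice that the study's methods give as miR-31 fl/fl without Cre. All were 6 weeks old and on the C57BL/6 background. From each spleen, naive CD4+ T cells that were negative for CD25 and for a Foxp3 reporter, and high in CD62L, were sorted and cultured for 4 days with 5 μg per ml of plate-bound anti-CD3, 2 μg per ml of anti-CD28, 5 ng per ml of TGF-β1 and 40 ng per ml of IL-2. The methods of the study give a lower dose of IL-2 for the same kind of culture. Each culture's RNA went to a separate one-colour Agilent array, so that n = 3 mice in each group, and the cells were not sorted again for Foxp3 or CD25 as far as the sources used here say.

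IL-2 binds a receptor of 3 chains. The α chain (CD25, Il2ra) raises the affinity of the complex, and the β chain (CD122, Il2rb) and the common γ chain (Il2rg) carry the signal into the cell through the kinases JAK1 and JAK3. These phosphorylate STAT5A and STAT5B, which enter the nucleus and switch on, among others, Il2ra itself and the inhibitors Cish, Socs1 and Socs2, so that the pathway holds a positive loop at the receptor and a negative loop at the SOCS genes. Regulatory T cells depend on this signal, and STAT5 acts on the Foxp3 gene.

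The RNA that the cKO mice lack is shown first. The mature miR-31-5p lies on chromosome 4 (GRCm38.p6, chr4:88910614-88910635, minus strand, sequence from RefSeq), and its seed, bases 2 to 8, by which it pairs with target RNAs, is in capitals.
mmu-miR-31-5p: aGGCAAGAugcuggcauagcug
No probe of the array is named for miR-31 (0 of the probes that are not controls), so these arrays give no check of the deletion. The probes of the array are 60 bases long and read 1 place in a transcript each. Of the 20 probes, 4 map to a stretch of the genome longer than themselves. Il2ra probe 1 spans 62 bases, too small an excess for an intron, whereas the others leave out 266 to 989 bases and were read as joining exons across an intron. Those 3 are shown because they would read spliced RNA of the common γ chain, of JAK3 and of STAT5B. Each has at least 1 reading frame without a stop codon. Genomic positions of probes are those of the array's annotation, in build mm9.
Il2rg, chrX:98461022-98461535, minus strand: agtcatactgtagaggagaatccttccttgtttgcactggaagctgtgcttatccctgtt
Jak3 probe 3, chr8:74210826-74211151, plus strand: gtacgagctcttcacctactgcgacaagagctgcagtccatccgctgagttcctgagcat
Stat5b probe 2, chr11:100648654-100649702, minus strand: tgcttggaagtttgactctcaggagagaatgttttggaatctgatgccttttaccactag
The genome spans of these probes leave out 454, 266 and 989 bases respectively. Probes of a gene are numbered from the brightest, by their mean over the 6 arrays.

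Values are log2 signals relative to the 75th percentile of the array, so that a value of 1 is a doubling over that point, and differences are cKO minus control. Every one of the 20 probes was well above background on all 6 arrays, so none had to pass the filter through 1 group alone. None had an adjusted p under 0.05 in limma (0 of 20), where 0.13% of the 22281 tested probes did. The test given in the study's methods gave 0 as well. At an unadjusted p under 0.05 it had 2 probes higher, Il2rb and Jak1 probe 3, and 1 lower, Socs1. Of these, Jak1 probe 3 was not under 0.05 in limma, where Stat5b probe 3 and Socs2 probe 1 were. The share of all tested probes was not taken for the methods' test, so its counts have no background here. Without adjustment, 2 of the 20 probes had a p under 0.05 in limma with a higher cKO mean and 2 with a lower one, against 11.7% and 11.3% of all tested probes. All 3 cKO arrays lay above all 3 control arrays for 3 probes and below them for 3, against 16.2% and 20.3% of all tested probes. These shares are near the background, and an exact permutation test of 3 arrays against 3 cannot give a two-sided p below 0.10. The median difference was 0.13 over the 20 probes and −0.04 over all tested probes. By direction, Il2rb, the kinases and both STAT5 genes had higher means in cKO cells, whereas Il2ra, Il2rg, Cish, Socs1 and Socs2 had lower ones, and no single gene passed the test over all probes.

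The arrays as a whole had 49.3 to 57.7% of their spots well above background, and 0 saturated spots. Arrays of the cKO mice differed more among themselves than control arrays did. The SD of the 3 cKO arrays was larger than that of the 3 control arrays for 73.2% of all tested probes, and for 18 of the 20 probes here. cKO array 3 stood farthest out: it was the highest or the lowest of the 6 arrays for 18 of these 20 probes, against 63.3% of all tested probes. Its Pearson correlation across probes with the other cKO arrays was 0.974 and 0.979, against 0.985 between those. The file headers place the 3 cKO arrays and control array 1 on slide 1, and control arrays 2 and 3 on slide 2, so that slide and genotype can be told apart only through control array 1. Within slide 1, 19 of the 20 probes had the same direction as over all arrays, and no probe had an adjusted p under 0.05. Both comparisons share the 3 cKO arrays and control array 1, so a like direction is partly built in. The share of all tested probes that kept their direction was not taken.

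**Figure D1:**
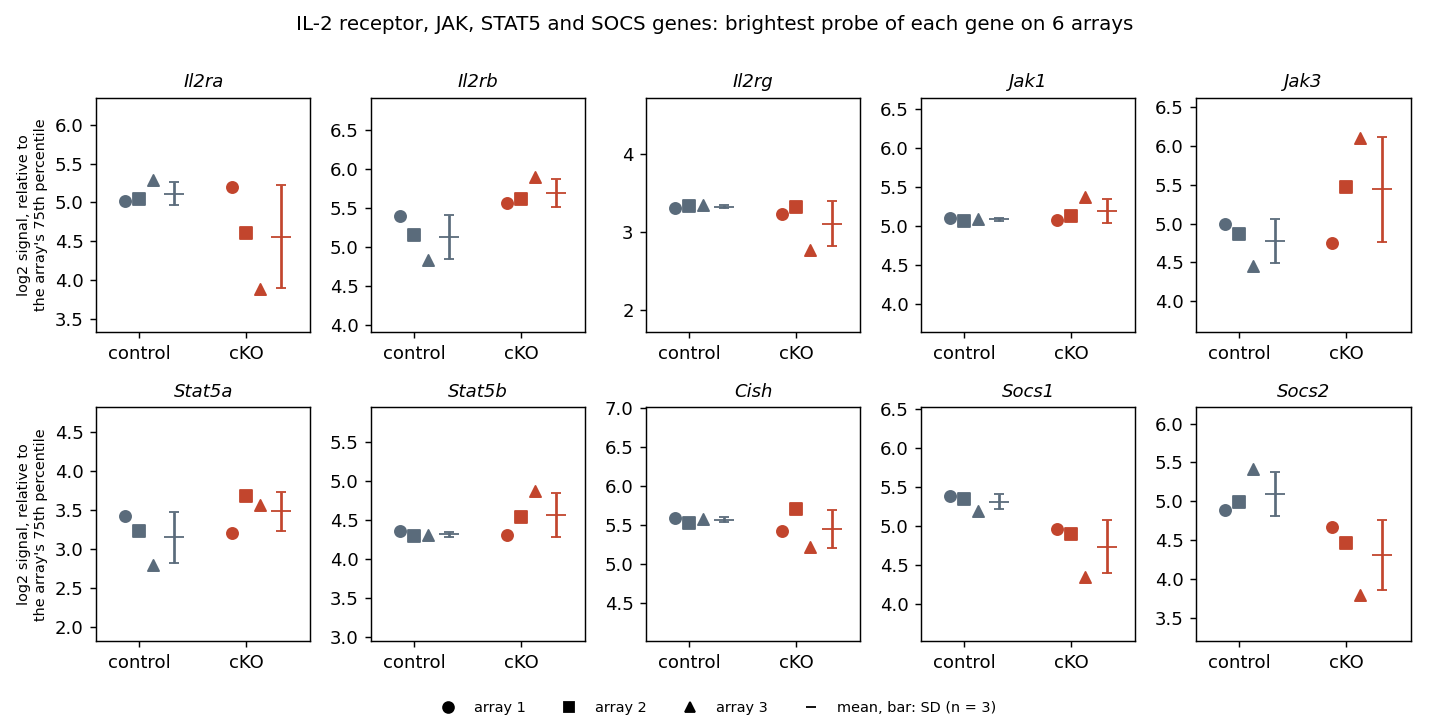
Log2 signal of the brightest probe of each gene (y axis, relative to the 75th percentile of the array) on 3 control and 3 cKO arrays, with a different marker for each array number and the mean with its SD beside the points. Every panel spans the same range in log2 units. The groups separate for Il2rb, Socs1 and Socs2, and the cKO points are spread widely for Il2ra and Jak3.

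Of the receptor chains, Il2ra and Il2rg had lower means in cKO cells and Il2rb a higher one. The brightest Il2ra probe (AF054581, chr2:11614432-11614493, plus strand) read 5.20, 4.60 and 3.89 on cKO arrays 1, 2 and 3, and 5.01, 5.04 and 5.29 on control arrays 1, 2 and 3. In linear signal, that is 36968, 24281 and 13871 units in cKO cells against 34283 to 40286 in control cells. The groups overlapped, since cKO array 1 was within the control range while cKO arrays 2 and 3 were below it. The mean was 4.56 ± 0.66 (SD, n = 3) in cKO and 5.11 ± 0.15 in control cells, a difference of −0.55 on the log2 scale or 1.47-fold (standard error 0.33, adjusted p = 0.33 in limma). Its 95% confidence interval ran from −1.34 to 0.24. Without cKO array 3 the difference was −0.21, and without cKO array 1 it was −0.87.

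The other Il2ra probes had the same direction but differed in size. Probe 3 (NM_008367, chr2:11613901-11613960) read 0.97, 0.70 and −0.34 in cKO cells and 0.98, 1.05 and 1.27 in control cells. All cKO arrays were below all control arrays, though cKO array 1 and control array 1 were nearly equal, and the difference was −0.65 (standard error 0.34, adjusted p = 0.29). Probe 2 (NM_008367, chr2:11612403-11612462) had a difference of −0.22 (adjusted p = 0.48), with cKO array 3 at 2.41 and the other arrays at 2.86 or above. Probe 4, annotated with the transcript ENSMUST00000150890 (chr2:11569860-11569919), had a difference of −0.02, with −0.02 on cKO array 3 and 0.22 to 0.39 on the other arrays. This last direction reversed with the slide as a term (0.01), with weights for the arrays (0.07) and without cKO array 3 (0.10). On all 4 Il2ra probes, cKO array 3 was the lowest of the 6 arrays.

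Il2rb, whose chain is shared by the receptors for IL-2 and IL-15, was the receptor gene whose groups did not overlap on its brightest probe. Its single probe (NM_008368, chr15:78311109-78311168, minus strand) read 5.57, 5.61 and 5.89 in cKO cells and 5.39, 5.15 and 4.84 in control cells. The gap between the lowest cKO array and the highest control array was smaller than the spread within the control group. The mean of 5.69 ± 0.18 in cKO cells was 0.56 above the 5.13 ± 0.28 of control cells, or 1.48-fold (standard error 0.18, unadjusted p = 0.018, adjusted p = 0.17 in limma), with a 95% confidence interval of 0.13 to 0.99. Within slide 1 it was 0.30 (adjusted p = 0.89). Without control array 3 the unadjusted p was 0.050 and the difference 0.42. Il2rb is also abundant in NK cells and in memory CD8 T cells, which the sort for naive CD4+ cells before the culture is meant to leave out. Of 3 NK cell markers, Klrd1 was the only one tested, at 3.03, 0.60 and 3.19 in cKO and 0.90, 0.18 and 0.07 in control cells, a difference of 1.89 (unadjusted p = 0.037, adjusted p = 0.20). Klrb1c was well above background on 0 arrays, Ncr1 on 2 cKO arrays and no control array. The summed linear level of the 3 markers, relative to the 75th percentile, was 1.58 to 9.17 in cKO and 1.07 to 1.91 in control cells. The summed level of the CD8 genes Cd8a and Cd8b1 was 4.06 to 4.56 in cKO and 4.62 to 5.82 in control cells. The part of these cells in the Il2rb signal was not tested, and in RNA of a whole culture a larger share of cells of a type cannot be told apart from more RNA per cell.

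Il2rg, the common γ chain that also serves the receptors for IL-4, IL-7, IL-9, IL-15 and IL-21, was even among the control arrays. The probe joined across the intron (NM_013563, sequence above) read 3.22, 3.32 and 2.77 in cKO cells and 3.30, 3.33 and 3.34 in control cells. cKO array 3 was low, and the other arrays lay between 3.22 and 3.34. The difference was −0.22 (standard error 0.16, adjusted p = 0.42, 95% confidence interval −0.61 to 0.17), and −0.05 without cKO array 3.

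The 2 kinases both had higher means in cKO cells. For Jak1, which binds the β chain, the brightest probe (NM_146145, chr4:100825794-100825853, minus strand) read 5.09, 5.14 and 5.37 in cKO cells and 5.10, 5.07 and 5.09 in control cells. The difference of 0.11 (standard error 0.11, adjusted p = 0.56) had a 95% confidence interval of −0.16 to 0.39. Probe 2 (chr4:100825094-100825153) had a difference of 0.16 (adjusted p = 0.42). A dimmer probe, probe 3 (AK029232, chr4:100829070-100829129) carries the symbol but lies on the plus strand, opposite to the other Jak1 probes. It read −2.13, −2.06 and −1.92 in cKO cells and −2.25, −2.22 and −2.20 in control cells, all cKO arrays above all control arrays, with a difference of 0.18 (adjusted p = 0.31).

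Jak3, which binds the common γ chain, had the largest difference towards higher values in cKO cells by brightest probe over all 6 arrays, and its groups overlapped. The brightest probe (NM_010589, chr8:74214308-74214367, plus strand) read 4.75, 5.47 and 6.10 in cKO cells and 5.00, 4.87 and 4.46 in control cells. cKO arrays 2 and 3 were above every control array, while cKO array 1 was below control arrays 1 and 2. The difference was 0.66 or 1.58-fold (standard error 0.35, adjusted p = 0.29), with a 95% confidence interval of −0.19 to 1.52. Probe 2 (chr8:74214085-74214144) read 3.43, 4.00 and 4.65 in cKO and 3.51, 3.37 and 2.84 in control cells, a difference of 0.78 (unadjusted p = 0.059, adjusted p = 0.23). The probe across the intron, probe 3, read 2.02, 2.49 and 2.99 in cKO and 2.24, 2.20 and 1.68 in control cells, a difference of 0.46 (adjusted p = 0.35). On all 3 Jak3 probes cKO array 3 was the highest, cKO array 2 the next and control array 3 the lowest. The difference of the brightest probe was 1.01 without cKO array 1, 0.33 without cKO array 3 and 0.44 within slide 1.

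**Figure D2:**
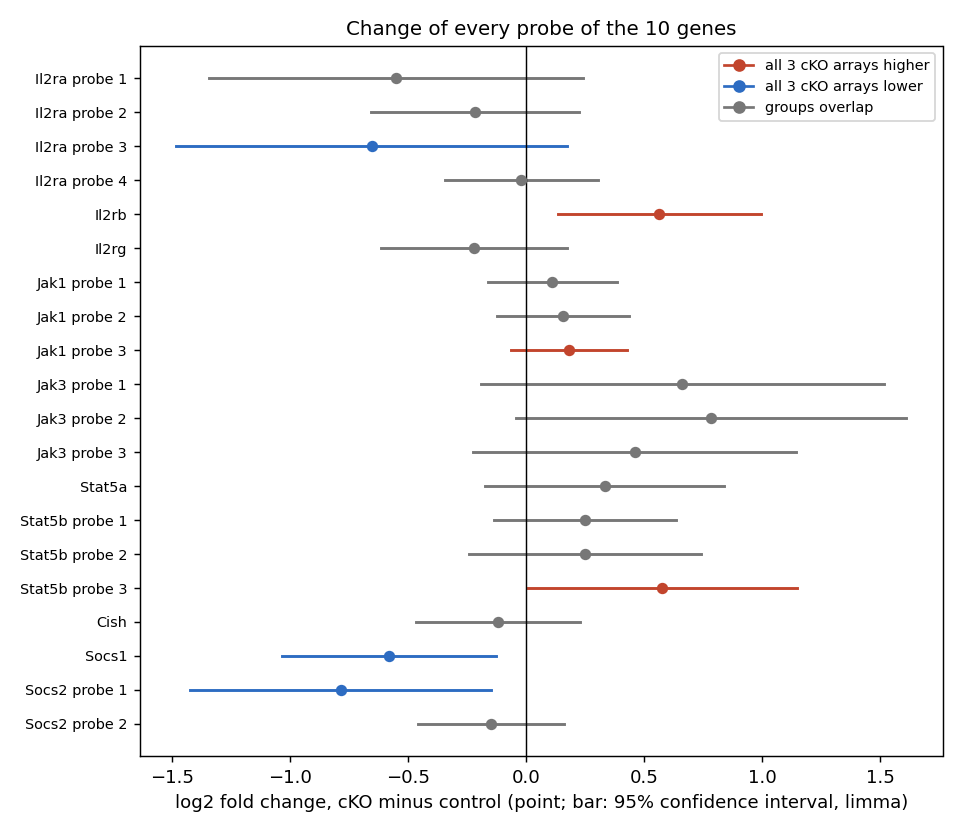
Log2 fold change of each of the 20 probes, cKO minus control (x axis; point), with its 95% confidence interval from limma (bar), coloured by whether the 3 cKO arrays all lay above or all below the 3 control arrays. The intervals of Il2rb, Stat5b probe 3, Socs1 and Socs2 probe 1 leave out 0, and 0 of the 20 had an adjusted p under 0.05.

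STAT5A and STAT5B are closely related factors encoded by neighbouring genes on chromosome 11. Their probes are distinct: the longest run of bases that the Stat5a probe shares with any of the 3 Stat5b probes is 6 of 60. Stat5a (NM_011488, chr11:100746144-100746203, plus strand) read 3.20, 3.68 and 3.57 in cKO cells and 3.43, 3.23 and 2.79 in control cells. The groups overlapped, and the difference was 0.33 (standard error 0.21, adjusted p = 0.36, 95% confidence interval −0.17 to 0.84). Within slide 1 it was 0.06.

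The brightest Stat5b probe (NM_011489, chr11:100642099-100642158, minus strand) read 4.31, 4.54 and 4.87 in cKO cells and 4.36, 4.29 and 4.31 in control cells. Its difference of 0.25 (standard error 0.16, adjusted p = 0.36) came with an SD of 0.28 among cKO arrays and 0.03 among control arrays, and cKO array 1 lay within the control range. The probe across the intron, probe 2, had the same difference of 0.25 (adjusted p = 0.46), from −1.04, −0.86 and −0.35 in cKO and −0.87, −0.93 and −1.19 in control cells. Probe 3, annotated with the transcript AK137889 (chr11:100682720-100682779), read −1.51, −1.82 and −0.91 in cKO cells and −2.04, −1.90 and −2.03 in control cells. All cKO arrays were above all control arrays on this dim probe, and the difference was 0.58 (standard error 0.23, unadjusted p = 0.048, adjusted p = 0.22). It was 0.33 without cKO array 3 and 0.26 with weights for the arrays.

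The inhibitors that STAT5 induces all had lower means in cKO cells, and cKO array 3 was the lowest of the 6 arrays on the brightest probe of each. The groups overlapped for Cish, which blocks STAT5 docking at the receptor, and not for the brightest probes of Socs1 and Socs2. Cish (NM_009895, chr9:107204196-107204255, plus strand) read 5.42, 5.70 and 5.22 in cKO cells and 5.59, 5.53 and 5.58 in control cells. The 3 control arrays lay between the highest and the lowest cKO array. The difference was −0.12 (standard error 0.14, adjusted p = 0.62), with a 95% confidence interval of −0.47 to 0.23, and it was 0.06, in the other direction, with weights for the arrays.

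Socs1, which binds and inhibits JAK kinases, read 4.96, 4.90 and 4.34 in cKO cells and 5.38, 5.36 and 5.20 in control cells (NM_009896, chr16:10783951-10784010, minus strand). All cKO arrays were below all control arrays. The mean was 4.73 ± 0.34 in cKO and 5.31 ± 0.10 in control cells, a difference of −0.58 or 1.49-fold (standard error 0.19, unadjusted p = 0.020, adjusted p = 0.17), with a 95% confidence interval of −1.03 to −0.13. Without cKO array 3 the difference was −0.38, at an unadjusted p of 0.0097 and an adjusted p of 0.15. Within slide 1 it was −0.65 (adjusted p = 0.89). With weights for the arrays, which gave cKO array 3 a weight of 0.174 and control array 2 one of 4.79, it was −0.47 with an adjusted p of 0.048, the only adjusted p under 0.05 of any of the 20 probes in any setting tried.

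Socs2, best known for restraining growth hormone signalling through STAT5B, had the largest difference of the 10 genes by brightest probe over all 6 arrays. Its brightest probe (NM_007706, chr10:94875066-94875125, minus strand) read 4.67, 4.47 and 3.80 in cKO cells and 4.89, 4.99 and 5.42 in control cells. The groups did not overlap, with cKO array 1 closest to the controls. The mean was 4.31 ± 0.45 in cKO and 5.10 ± 0.28 in control cells, a difference of −0.79 or 1.72-fold (standard error 0.26, unadjusted p = 0.023, adjusted p = 0.18), with a 95% confidence interval of −1.42 to −0.15. It was −0.53 without cKO array 3, −0.63 without control array 3 and −0.58 within slide 1 (adjusted p = 0.89). Probe 2 (ENSMUST00000130784, chr10:94850747-94850806), whose groups overlapped, was far dimmer, with means of −0.06 in cKO and 0.09 in control cells. Its difference was −0.15 (adjusted p = 0.48), with cKO array 3 the highest of the cKO arrays there and the lowest on probe 1.

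**Figure D3:**
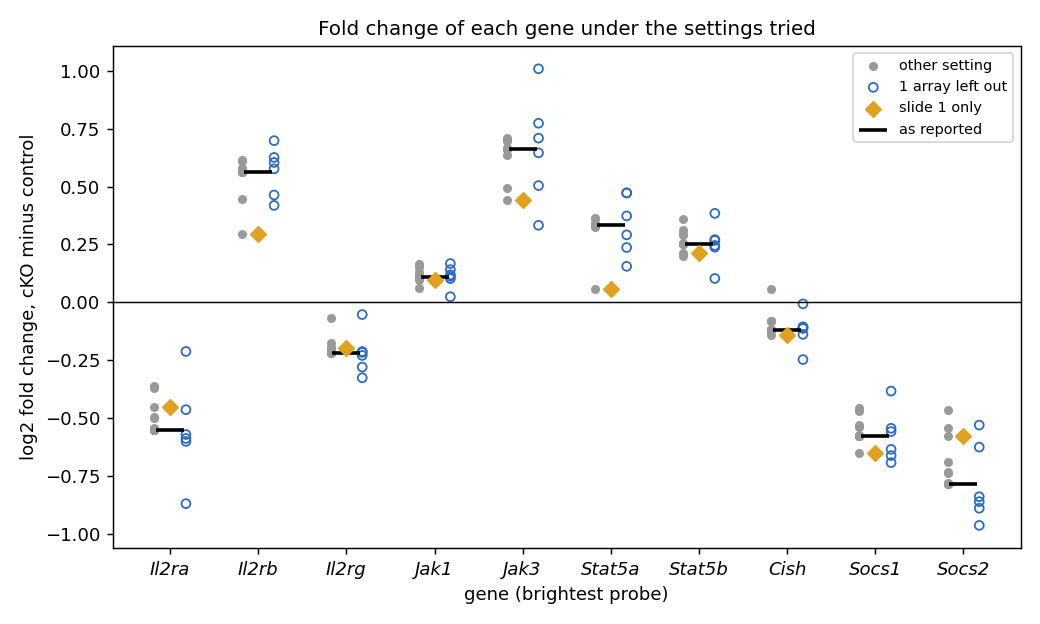
Log2 fold change of the brightest probe of each gene, cKO minus control (y axis), as reported (black line), within slide 1 (diamond), with each of the 6 arrays left out in turn (open circles) and under the other settings (grey points). Every gene but Cish kept its direction throughout, and Cish crossed 0 with weights for the arrays. Some of the other settings cannot move the estimate.

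STAT5 binds the palindromic motif TTCNNNGAA. RefSeq promoter sequence (GRCm38.p6) was at hand for 8 of the 10 genes in 10 windows, each the 250 bases before a transcription start. The motif, which reads the same on both strands, was in 0 of these 10 windows, and in 7.02% of all 32851 windows of that length. That says only that these letters are not in these windows. Il2rb and Socs2 had no entry.

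The wider pathway was followed through 8 lists of 65 genes in all, of which 61 were tested, each by its brightest tested probe. Without adjustment 11 of the 61 had a p under 0.05 in limma with a higher cKO mean and 3 with a lower one, against the 11.7% and 11.3% of all tested probes, and 0 had an adjusted p under 0.05. All cKO arrays lay above all control arrays for 18 genes and below for 10, against 16.2% and 20.3% of all tested probes. Brightest probes of genes and all probes are not the same population, so that the shares are set side by side only. The counts of the single lists below stand against the same shares. Genes named below for an unadjusted p under 0.05 tend to have groups that do not overlap, so that adds no support. The median difference was 0.12.

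Among the ligands that signal through the common γ chain, 4 of 6 were tested and 0 had an unadjusted p under 0.05. Il2 itself had the largest difference of them, −0.27 (unadjusted p = 0.64), at −2.48, −1.82 and −3.71 in cKO and −2.11, −1.95 and −3.15 in control cells. Of the other receptor chains of the family, 2 of the 4 tested had a higher cKO mean at an unadjusted p under 0.05 and the median was 0.33. Il7r, the IL-7 receptor α chain, which IL-2 signalling is known to turn down, read 2.67, 2.95 and 4.19 in cKO and 2.17, 1.71 and −0.19 in control cells, a difference of 2.04 (standard error 0.70, adjusted p = 0.18). Its groups did not overlap, and control array 3 was far below the rest. Il21r, the IL-21 receptor, was 0.53 higher (adjusted p = 0.16) and did not overlap either.

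Other JAK and STAT genes had a median of 0.24 over 7 tested, 2 of them higher at an unadjusted p under 0.05. Stat3, which transmits IL-6 and IL-21 signals, read 5.95, 6.16 and 6.51 in cKO and 5.68, 5.59 and 5.58 in control cells (0.59, standard error 0.16, adjusted p = 0.14). Jak2 had a difference of 0.62 (adjusted p = 0.20). In both, cKO array 3 was the highest and the groups did not overlap.

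Of 5 further SOCS genes, Socs3 alone had an unadjusted p under 0.05, and the median was 0.26. All cKO arrays lay above all control arrays for 1 of the 5, Socs3, and below for 2. Of all tested probes, 16.2% lay above and 20.3% below. Socs3, the inhibitor that STAT3 induces, read 4.29, 4.15 and 4.52 in cKO cells and 3.77, 3.32 and 2.73 in control cells, a difference of 1.05 (standard error 0.27, unadjusted p = 0.0081, adjusted p = 0.14). Its direction was opposite to that of Socs1 and Socs2, and the control arrays differed more from each other than the cKO arrays did. Phosphatases and PIAS proteins that restrain JAK and STAT had a median of −0.01 over 10 tested. Within them Ptpn6 (SHP-1), at 0.31 (adjusted p = 0.21), and Pias4, at 0.27 (adjusted p = 0.21), were higher at an unadjusted p under 0.05. In the PI3K and MAPK arm, with a median of −0.05 over 11 tested, Mapk3 (ERK1) was 0.46 higher at an unadjusted p of 0.0065 (adjusted p = 0.13).

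Of 16 genes that IL-2 and STAT5 are known to induce, 3 were higher and 3 lower at an unadjusted p under 0.05, with a median of 0.12. The shares of all tested probes were 11.7% and 11.3%, and so short a list cannot be told apart from them. Pim2, a survival kinase, had the smallest p of all 61 genes, at 3.08, 2.75 and 2.96 in cKO and 2.22, 2.17 and 2.00 in control cells, a difference of 0.80 (standard error 0.13, unadjusted p = 0.00069, adjusted p = 0.071). Prdm1, which encodes Blimp-1, was 1.74 higher (adjusted p = 0.12), and Tnfrsf4, which encodes OX40, 0.52 higher (adjusted p = 0.21). Osm, which encodes oncostatin M, was at −0.09, −0.31 and −1.48 in cKO and 0.43, 0.51 and 0.57 in control cells, a difference of −1.13 (adjusted p = 0.17). Bcl2, the survival factor, had a difference of −0.43 (adjusted p = 0.15). Foxp3, which defines regulatory T cells, read 3.23, 3.19 and 2.53 in cKO and 3.48, 3.48 and 3.81 in control cells, a difference of −0.61 (adjusted p = 0.19). The groups did not overlap for any of these 6 genes, but they were named for their p, so this adds no support. Over the list of 16, all cKO arrays lay above all control arrays for 5 genes and below for 5. Of all tested probes, 16.2% lay above and 20.3% below. Of 5 genes that IL-2 and STAT5 are known to repress, Il7r alone had an unadjusted p under 0.05, and the median was 0.28.

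**Figure D4:**
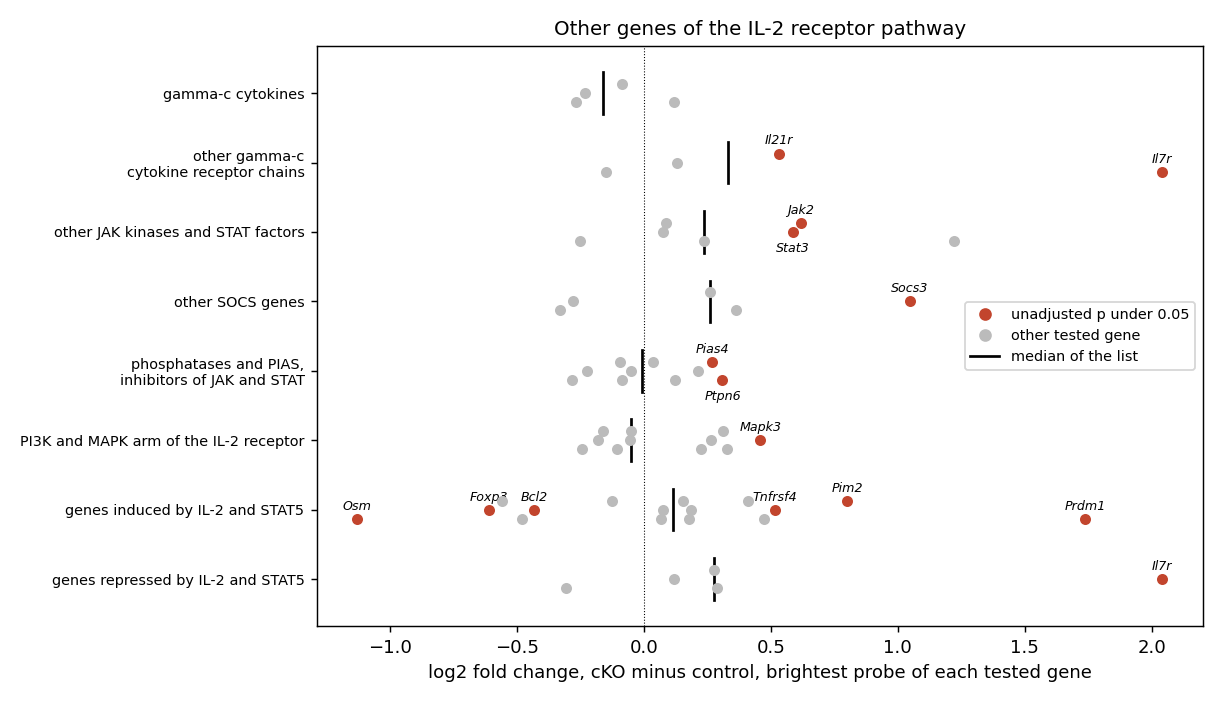
Log2 fold change, cKO minus control (x axis), of the brightest probe of each tested gene in 8 lists of the IL-2 receptor pathway (rows), with genes at an unadjusted p under 0.05 in limma named in colour and the median of each list as a vertical line. Il7r stands in 2 lists. Genes induced by IL-2 and STAT5 lie on both sides of 0, and 0 of the named genes had an adjusted p under 0.05.

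The cultures are labelled as iTreg cells from naive CD4+ T cells. Cd4 read −0.40, 0.06 and 0.44 in cKO and −0.61, −0.58 and −0.71 in control cells. Cd8b1 was above it on every array, at 1.46, 1.68 and 2.02 in cKO and 1.81, 1.77 and 2.09 in control cells. Cd8a and Cd8b1, markers of a T cell type that the label does not name, were well above background on all 6 arrays. Signals of different probes do not compare amounts of RNA between genes. The T cell genes Cd3d, Cd3e, Cd3g, Cd4 and Cd28 were all tested, 4 with higher and 1 (Cd3e) with lower cKO means at an unadjusted p under 0.05. Of all tested probes, 11.7% and 11.3% had such a p. The summed linear level of these genes was 124 to 177 times the 75th percentile in cKO and 103 to 115 times in control cells. Most of that sum was Cd3d, at 6.44 to 7.18 on the log2 scale. All 6 markers of regulatory T cells were tested, 1 higher (Ctla4) and 1 lower (Foxp3) at an unadjusted p under 0.05. Their summed levels were 146 to 188 in cKO and 107 to 156 in control cells. Most of that sum was Tnfrsf18, at 6.46 to 7.44 on the log2 scale. All cKO arrays lay above all control arrays for Ctla4 and, barely, Ikzf4, and below them for Foxp3 and Folr4. The shares of all tested probes were 16.2% and 20.3%. Of 4 B cell and 6 myeloid markers 1 each was tested, with summed levels of at most 1.32 and 0.350 on any array. Of 4 erythroid markers Hbb-b1 was tested, 2.10 higher in cKO (adjusted p = 0.16), and Hba-a1, which was not tested, had lower values in cKO, at −5.08, −5.04 and −6.50 in cKO cells, well above background on 0 arrays, and −4.00, −3.73 and −3.27 in control cells, well above it on 2. The summed level of the 4 was 0.503 to 1.10 in cKO and 0.202 to 0.398 in control cells. The part of these shifts in the values of the IL-2 receptor genes was not tested.

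Of 14347 other genes, the 3 whose mean-centred values over the 6 arrays came closest to those of the brightest Il2ra probe were Nacc2, 2900056L01Rik and Abcf2, with root mean square differences of 0.063, 0.065 and 0.066 on the log2 scale. For Cish they were Nipsnap3b, Myef2 and Guk1, at 0.029, 0.035 and 0.037. With 6 arrays, this is a description of the pattern alone.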

How the data were processed

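The authors labelled 0.5 μg of RNA per culture with Cy3 and read the spots with Agilent Feature Extraction (version 9.1 in the submitters' processing notes, 10.7.3.1 per the file headers). The deposited spot intensity is linear and background-subtracted, and is not normalized between arrays. The authors also deposited a table of log2 values with nearly equal distributions on all arrays, used here as an alternative. All its columns were assigned to samples (0 left over).

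Each array holds 45018 spots, 43379 of them not controls. Spots marked as outliers (123 to 140 per array) were dropped, spots of a probe were averaged, and the 75th percentile of each array (939 to 1095) was subtracted on the log2 scale. The number of arrays limits the precision. A probe was tested if it stood well above background on 3 or more of the 6 arrays (22281 probes), with limma 3.58.1 (lmFit, eBayes) in R 4.3.3, with statmod 1.5.0 for robust fits and Benjamini-Hochberg adjustment over all of them. Python 3.11.15 with pandas 2.3.3, numpy 2.4.6 and matplotlib 3.10.9 made tables and plots. Both tests were also run on simulated data with known differences. Those data had the same SD in both groups, unlike the arrays here, so they do not cover the wider spread of the cKO arrays. Of the 15 member probes annotated with a RefSeq transcript, 15 matched the same symbol in a current RefSeq table. Exon and UTR annotation of build mm9 was not used here.

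The members and lists were chosen with earlier results of these data known. Named genes are the 10 members with every probe, the genes of each pathway list with an unadjusted p under 0.05 (or, with none, the one with the largest difference), and the 3 genes closest to Il2ra and Cish. Markers are named beside results. Alternatives, 13 settings and each of 6 arrays left out, were normexp (offset 50) with quantile normalization, quantile normalization, the median for scaling, the authors' table, no filter or a filter on all arrays, the methods' t-test, robust fitting with a trend, a replicate block, the slide as a term, slide 1 alone, array weights and the mean over a gene's probes.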

Additional observations from a re-analysis of the deposited data

How the results depend on the processing

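Some alternatives leave the estimate as it is and can move only its p. These are no filter, a filter on all arrays, the methods' t-test, robust fitting with a trend and the replicate block. The mean over a gene's probes is also the same value for a gene with 1 probe. The slide as a term and slide 1 alone gave the same estimates. Over 370 combinations of a probe and an alternative, these included, 364 kept the direction and the side of the adjusted threshold. The exceptions were Socs1 with array weights (−0.47, adjusted p = 0.048, which makes 1 probe past the threshold), Cish with array weights (0.0552), and Il2ra probe 4 with the slide as a term or slide 1 alone (0.011), with array weights (0.0663) and over single arrays left out (−0.10 to 0.10). At an unadjusted p under 0.05, the counts were 2 higher and 2 lower. The count higher was 3 with the median for scaling, a filter on all arrays or robust fitting with a trend. It was 1 with quantile normalization, the authors' table or no filter. The count lower was 1 with the methods' t-test, and both counts were 0 with the slide as a term or slide 1 alone. They ran from 0 to 5 higher and 1 to 4 lower over single arrays left out, with 5 and 4 when cKO array 1 was left out and 0 higher when control array 3 was left out. With a replicate block they were 0 higher and 1 lower. The replicate numbers did not pair the samples (correlations of deviations −0.14, 0.01 and −0.19), so this fit is given only here, and it moved no adjusted call. Separated probes, 3 above and 3 below, were 5 above with quantile normalization or the authors' table, and 3 to 11 above and 3 to 5 below over single arrays left out, where leaving out cKO array 1 gave 11 and leaving out cKO array 2 gave 5. Groups separate more easily with an array fewer. Shares over all tested probes were not taken for the alternatives, so these counts cannot be set against a background. The causes were not tested. All 20 probes were well above background on every array.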
